A study of Mus musculus with 9 samples.

Results

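Ischemia-reperfusion was compared with sham surgery in hearts of saline-treated mice, over the whole heart rather than within a cell type. The comparison rests on 6 of the series' 9 single-nucleus RNA libraries, 3 from ischemia-reperfusion (NS-I/R) and 3 from sham surgery (NS-Sham), and on 30269 of its 44430 nuclei. Libraries were chosen by their surgery and treatment labels, and nuclei by having at least 500 genes detected and at most 5% of unique molecular identifiers (UMIs, each a counted RNA molecule) from mitochondrial genes. All mice were wild-type (WT) males aged 9 to 10 weeks, and the same saline schedule, 2 intraperitoneal injections with the earlier given 1 h before occlusion, applied to both groups. NS-I/R mice had the left anterior descending (LAD) coronary artery tied for 45 min and reopened for 24 h, and NS-Sham mice had a thoracotomy without occlusion. The other 3 libraries came from ischemia-reperfusion with enpatoran (Enpa-I/R), at 5 mg/kg per injection. They entered the fit for the estimate of the spread between libraries, and with it the low-count filter and the scaling, but not the contrast. A portion of powdered frozen heart was used for each library, so the infarct, its border and remote muscle were measured together in unknown proportions. The labels number the libraries as replicates without naming the animals, and p-values here measure the spread between libraries, which may be partly technical.

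Tying a coronary artery starves heart muscle of oxygen, and reopening it brings a burst of oxidants, calcium overload and death of cardiomyocytes. Dying cells release molecules that switch on innate immune receptors and the transcription factor NF-kB, and neutrophils and then monocytes are drawn in by chemokines from injured muscle, fibroblasts and vessel walls. Surviving cardiomyocytes are known to return to a fetal-like expression programme, with less fatty acid use and more glycolysis, while fibroblasts and macrophages begin to build a scar.

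UMIs were summed per library over the kept nuclei. Levels are given as CPM, UMIs per 1000000 of the library's summed total, in NS-Sham replicates 1, 2 and 3 and then NS-I/R replicates 1, 2 and 3. Differences are log2 fold changes, NS-I/R minus NS-Sham, from edgeR's quasi-likelihood F test with TMM scaling, with their standard error (SE) and a p adjusted over all 18260 genes tested by the Benjamini-Hochberg method. A gene is called, and said to have risen or fallen, at an adjusted p under 0.05. Summed UMIs ran from 15129058 in NS-Sham 3 to 34842082 in NS-Sham 2, with 21873859 to 25905524 in NS-I/R. Median UMIs per kept nucleus were 2459 to 2906, and between 0.089% and 0.343% of the cell barcodes of a library occurred in another.

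NS-I/R 3 stood apart from the other ischemia-reperfusion hearts. Its log2 CPM correlated across genes at 0.964 with NS-I/R 1 and 2, which correlated with each other at 0.987, and at 0.933 to 0.937 with the sham libraries. It correlated at 0.978 to 0.984 with the 3 enpatoran libraries. Of the genes called lower in NS-I/R, 3114 of 4419 (70.5%) were mildest in NS-I/R 3, and of those called higher, 2556 of 4410 (58.0%). It was not the mildest for every gene group, since neutrophil and monocyte genes such as Csf3r and Chil3 were highest there. Where leaving it out ended the call of a named gene or moved its fold change by more than 1.5 times, the value or the lost call is given beside the gene, and the larger moves of list counts are given likewise. Libraries also differed in the mitochondrial share of the kept UMIs, a measure of cytoplasm carried along with nuclei. It was 1.33%, 0.838% and 1.30% in NS-Sham and 0.906%, 0.852% and 1.01% in NS-I/R. NS-Sham 2 was the lowest of all and lay nearer to the NS-I/R hearts than to the other sham hearts. NS-I/R 2 held 15.1 CPM of Scgb1a1, a lung airway gene at 0.411 CPM or less in the other 5 libraries, and 22.9 CPM of the fat cell gene Cidec, at 3.75 CPM or less elsewhere.

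**Figure D1:**
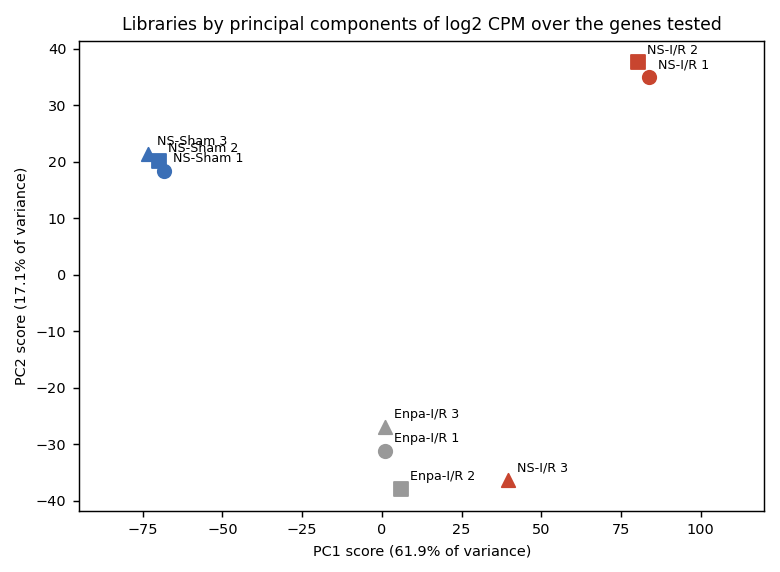
Scores of the 9 libraries on the first and second principal components of log2 CPM over 18260 genes (61.9% and 17.1% of the variance), coloured by group with the shape giving the replicate. The sham libraries lie at the left, NS-I/R 1 and 2 at the upper right, and NS-I/R 3 lies between NS-I/R 1 and 2 and the sham libraries on the horizontal axis and among the grey Enpa-I/R libraries on the vertical axis.

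At 24 h of reperfusion about as many genes were higher as lower. Of 18260 genes, 4410 were higher in NS-I/R (24.2%) and 4419 were lower (24.2%). Changes of at least 2-fold made up 2057 of the higher (11.3%) and 2031 of the lower (11.1%), and CPM did not overlap between the groups for 10250 genes (56.1%). Scaling by library totals in place of TMM moved the median of all genes by 0.13 and the split to 5579 higher and 3337 lower, so that 62.6% of calls were higher in place of 49.9%. Without NS-I/R 3 the counts were 5456 (29.2%) and 5619 (30.1%). A fit of the 6 libraries of the contrast only, without Enpa-I/R, gave 3761 higher and 3895 lower.

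The genes with the largest fold rises were those of neutrophils, inflammatory monocytes and the cytokines that recruit them, all but undetected after sham surgery. Chil3, which encodes a chitinase-like lectin of monocytes, had 0, 0.0574 and 0.0661 CPM in NS-Sham and 40.1, 33.7 and 143 CPM in NS-I/R. It rested on 3 UMIs in all sham libraries against 5166, a ratio of UMIs per summed total of 1622 with a counting interval of 555 to 7870 (95%, exact binomial, counting error only). Without NS-I/R 3, its highest library, the ratio was 826, and with any other 1 of the 6 libraries left out it ran from 1199.9 to 2358. Cxcl3, a neutrophil-attracting chemokine, went from 0, 0.0287 and 0.0661 to 51, 27.7 and 24 CPM, 2 UMIs against 2406, and Retnlg, a resistin-like protein of neutrophils, from 0.0568, 0.0287 and 0.0661 to 43.6, 27 and 24.1 CPM, 3 UMIs against 2228. Their ratios were 1133 (313 to 9365) and 699.7 (239 to 3396), and that of Cxcl3 was 1759 without NS-Sham 3. Il6, which encodes the cytokine interleukin-6, stood at 0.398, 0.0287 and 0.132 and 84.9, 40.3 and 13.5 CPM (log2 fold change 8.07, SE 0.91, edgeR adjusted p = 8.9e-05), and ranged widely among the injured hearts, with NS-I/R 3 lowest. Its log2 fold change was 7.28 without NS-I/R 1, 9.30 without NS-Sham 1 and 7.27 without NS-Sham 2. Cd300lf, an inhibitory receptor of myeloid cells, was even among them, at 163, 129 and 163 CPM against 0.625, 0.603 and 0.33 CPM (log2 fold change 7.98, SE 0.34, edgeR adjusted p = 7.9e-07). Slfn4, a monocyte and neutrophil gene, stood at 0.114, 0.287 and 0.0661 against 34.7, 28.8 and 61.4 CPM (log2 fold change 7.60, SE 0.43, edgeR adjusted p = 2.7e-06, or 8.62 without NS-Sham 2). Arg1, the arginase of wound macrophages, had 0.341, 0.517 and 0.198 CPM after sham and 71.6, 48.9 and 93.9 CPM after injury (log2 fold change 7.35, SE 0.41, edgeR adjusted p = 2.4e-06). The groups did not overlap for any of these genes, which was a condition for naming them here.

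The largest fold falls included genes of working heart muscle. Myh7b, a slow-type myosin heavy chain that hosts a microRNA, was at 252, 282 and 301 CPM in sham and 12, 6.02 and 18.7 CPM in injured hearts (log2 fold change -4.65, SE 0.38, edgeR adjusted p = 1.5e-05). Hs3st5, an enzyme that modifies heparan sulfate chains, fell from 608, 719 and 615 to 20.9, 24.5 and 51.3 CPM (log2 fold change -4.47, SE 0.30, edgeR adjusted p = 6.7e-06). Itgb6, an integrin subunit, was at 215, 157 and 211 and then 10.6, 7.57 and 15.2 CPM (log2 fold change -4.27, SE 0.34, edgeR adjusted p = 1.4e-05). In each of these 3 genes NS-I/R 3 was the mildest, but still far under every sham heart. Rpl3l, the muscle form of ribosomal protein L3, fell from 142, 159 and 156 to 9.28, 9.5 and 23.6 CPM (log2 fold change -3.57, SE 0.31, edgeR adjusted p = 2.2e-05). Kcnip2, the accessory subunit of the fast transient outward potassium channel, fell from 89.6, 94.9 and 96.6 to 8.96, 8.34 and 11.3 CPM and was the most even of the group (log2 fold change -3.43, SE 0.12, edgeR adjusted p = 7.9e-07). The remaining 5 of the 10 largest falls were Gal3st2c, Ces1d, Actr3b, Hist1h2be and Ky, with log2 fold changes of -4.49, -3.61, -3.32, -3.26 and -3.22. Without NS-I/R 3 those of Hist1h2be and Ky were -4.33 and -4.27.

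By sheer amount of RNA, the largest changes in both directions included genes of heart muscle structure. Ttn, the giant spring protein titin, was the largest loss, from 14886, 15003 and 15054 CPM to 5739, 5582 and 8648 CPM (log2 fold change -1.31, SE 0.18, edgeR adjusted p = 0.00025). Ctnna3, a catenin of the intercalated disc, went from 3482, 4102 and 4295 to 515, 611 and 1536 CPM (log2 fold change -2.30, SE 0.35, edgeR adjusted p = 0.00051, or -2.94 without NS-I/R 3), with NS-I/R 3 again nearest to sham. Pde4d, a cyclic AMP phosphodiesterase, fell from 4279, 5533 and 5059 to 1399, 1545 and 1817 CPM (log2 fold change -1.78, SE 0.18, edgeR adjusted p = 5.7e-05). Zbtb20, a transcriptional repressor, fell from 5303, 5102 and 5204 to 1807, 1691 and 2155 CPM (log2 fold change -1.60, SE 0.11, edgeR adjusted p = 7.9e-06). Pdlim5, a Z-disc scaffold, was the largest gain, from 1571, 1335 and 1158 to 6513, 7764 and 2441 CPM (log2 fold change 1.92, SE 0.38, edgeR adjusted p = 0.0024). Sorbs2, an adaptor of Z-discs and intercalated discs, stood at 1777, 1767 and 1938 and 3809, 4215 and 2591 CPM (log2 fold change 0.82, SE 0.19, edgeR adjusted p = 0.005). In both, NS-I/R 1 and 2 were well above NS-I/R 3, which was itself above each sham heart. Neat1, the scaffold RNA of nuclear paraspeckles, was at 2722, 2693 and 2579.8 in sham and 5026, 5689.7 and 4824 CPM in injured hearts (log2 fold change 0.83, SE 0.15, edgeR adjusted p = 0.0017). Dmd, which encodes dystrophin, was at 5398, 5841 and 5938 and 8152, 9882 and 7640.2 CPM (log2 fold change 0.45, SE 0.15, edgeR adjusted p = 0.031), and this call was lost without NS-I/R 2 or without any of the sham libraries.

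**Figure D2:**
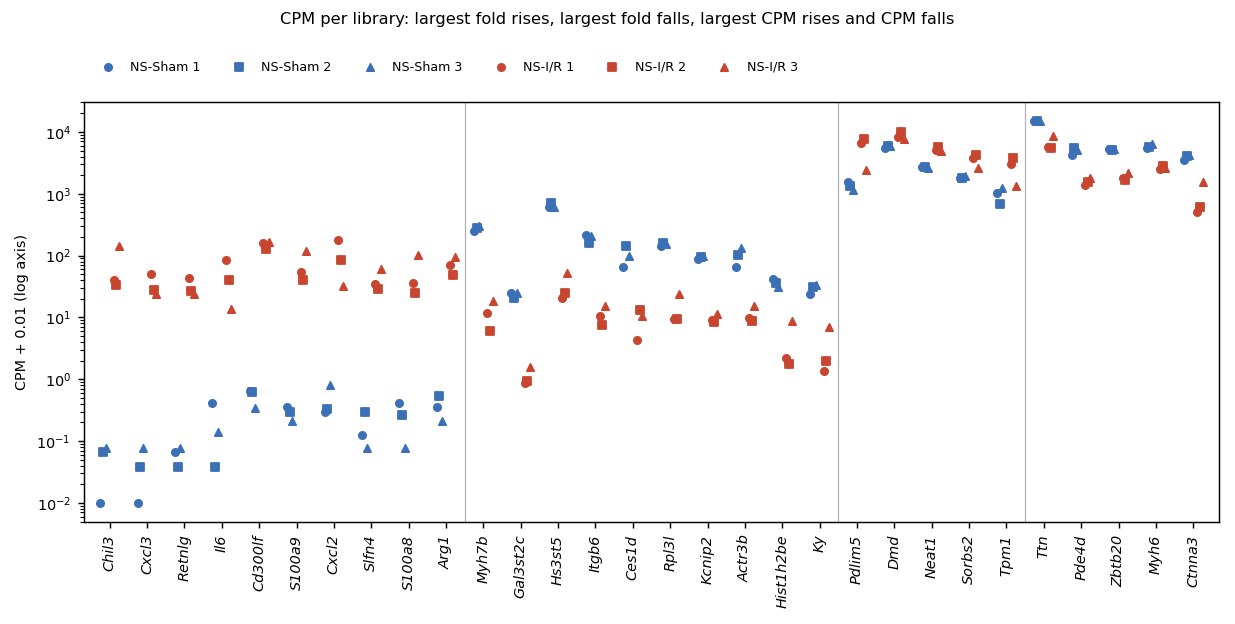
CPM + 0.01 on a log axis in each of the 6 libraries for the 10 largest fold rises, the 10 largest fold falls, the 5 largest CPM rises and the 5 largest CPM falls among called genes, with sham in blue, NS-I/R in red and the shape giving the replicate. Red and blue points are separated for all 30 genes, which was a condition for choosing the fold rises and fold falls. The NS-I/R 3 triangle lies nearest to sham in genes such as Pdlim5 and Ctnna3 and farthest from it in Chil3 and S100a8.

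Marker genes of 22 cell types gave the makeup of the hearts, and their counts are read against the 24.2% of all genes called in each direction. In summed nuclei, fewer nuclei of a type and less RNA per nucleus cannot be told apart. Of 10 cardiomyocyte markers, 8 fell and none rose, with a median log2 fold change of -1.30, and their summed level was 41183, 45075 and 45356 CPM in sham and 22846, 24042 and 27084 CPM in injured hearts. The exceptions were Ryr2 and Myom1. Ryr2, the calcium release channel, was at 7103, 9182 and 8284 and 8302, 9208 and 8170.1 CPM (log2 fold change -0.07, SE 0.14, edgeR adjusted p = 0.71). Myom1, an M-band protein, was at 930.4, 967 and 1168 and 1523, 1466 and 789 CPM (edgeR adjusted p = 0.56). All 9 tested neutrophil markers rose, with a median of 6.74, and their sum of 8.18, 5.94 and 4.76 CPM in sham stood against 333, 228 and 694 CPM. Ly6g, the classic surface marker of mouse neutrophils, had no UMI in the sham libraries and 32 UMIs in the injured ones, too few to be tested. S100a8 and S100a9, the calprotectin subunits stored by neutrophils, stood at 0.398, 0.258 and 0.0661 and 0.341, 0.287 and 0.198 CPM in sham and at 35.6, 24.8 and 103 and 53.6, 40.7 and 117 CPM in injured hearts, with NS-I/R 3 highest in both (edgeR adjusted p = 3.2e-05 and 8.1e-06). The log2 fold change of S100a8 was 7.58, and 6.75 without NS-I/R 3. Csf3r, the receptor for the growth factor of granulocytes, was at 4.77, 3.56 and 2.91 and 43.2, 34.4 and 226 CPM (log2 fold change 4.60, SE 0.74, edgeR adjusted p = 0.00074), and its log2 fold change was 3.24 without NS-I/R 3.

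Monocyte markers also rose, 7 of 8, and summed to 67.8, 60.8 and 72.1 CPM and 554, 406 and 518 CPM. Ccr2, the receptor by which inflammatory monocytes leave the marrow, was at 3.12, 2.93 and 4.69 and 9.23, 8.61 and 20.0 CPM (log2 fold change 1.69, SE 0.39, edgeR adjusted p = 0.0052). Macrophage markers were mixed, with 3 of 10 higher, 0 lower and a median of 0.04. Their sum was higher in every injured heart, at 486, 550 and 419 CPM in sham and 836, 611 and 870 CPM in NS-I/R. That sum rests largely on its most abundant marker, with means of 187 and 352 CPM, and on Mrc1, and is not a count of macrophages. The complement genes C1qa, C1qb and C1qc of resident macrophages were not called, as seen in C1qa at 20.6, 17.6 and 17.8 and 13.2, 8.34 and 19.4 CPM (edgeR adjusted p = 0.093), while the mannose receptor Mrc1 rose from 88.5, 97.3 and 77.1 to 207, 162 and 153 CPM (log2 fold change 0.86, SE 0.16, edgeR adjusted p = 0.0015). Timd4, a marker of self-renewing resident macrophages that binds dying cells, fell from 3.75, 5.37 and 3.24 to 1.42, 1.12 and 1.71 CPM (log2 fold change -1.69, SE 0.37, edgeR adjusted p = 0.004), a call lost when leukocyte-marker nuclei were left out. Without NS-I/R 3, 2 macrophage markers were higher and 2 lower. All 4 tested platelet markers rose, from summed levels of 7.44, 5.71 and 6.15 to 20.9, 23.3 and 38.7 CPM, led by Ppbp and Pf4, which encode platelet chemokines, at log2 fold changes of 4.79 (4.13 without NS-I/R 3 and 5.42 without NS-Sham 3) and 2.17. B lymphocyte markers went the other way, with 5 of 10 lower (2 of those tested without leukocyte-marker nuclei), among them Bank1 at 54.5, 51.2 and 27.7 and 9.01, 8.49 and 11.2 CPM (log2 fold change -2.35, SE 0.30, edgeR adjusted p = 0.0002).

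Among the cells of the tissue itself, pericyte markers fell in 6 of 10 and rose in none, with a summed level of 921, 974 and 897 CPM and 646, 515 and 706 CPM. Abcc9, a channel regulator listed here as a pericyte marker, went from 448, 484 and 431 to 241, 173 and 238 CPM (log2 fold change -1.20, SE 0.14, edgeR adjusted p = 0.00013). Its means of 454 and 217 CPM were a large part of the list means of 931 and 623 CPM. The lower sum thus rests largely on this gene, whose share from other cell types was not tested. Schwann cell markers fell in 4 of 6, including Cdh19 at 51.6, 72.2 and 66.4 and 25.7, 18.9 and 15.5 CPM (log2 fold change -1.80, SE 0.21, edgeR adjusted p = 0.00011). Endothelial markers were mixed, with 2 of 10 higher and 1 lower, or 2 higher and 5 lower without NS-I/R 3 (background 29.2% and 30.1%), and summed to 3056, 2955 and 2996 CPM and 2822, 2292 and 3398 CPM. Pecam1, the junction protein of all endothelium, was at 233, 222 and 211 and 304, 241 and 322 CPM (edgeR adjusted p = 0.11). Endocardial markers fell in 2 of 7, or in 5 of 7 without NS-I/R 3, in which they summed to 613 CPM against 292 and 300.0 CPM in NS-I/R 1 and 2. Fibroblast markers fell in 4 of 10, in 6 of 10 without NS-I/R 3 and in 1 with library totals in place of TMM (background 18.3% lower). They summed to 1655, 1717 and 1676 CPM in sham and 1082, 963 and 1464 CPM in injured hearts. Abca8a, a lipid transporter of resting fibroblasts, fell from 546, 635 and 601 to 189, 184 and 189 CPM (log2 fold change -1.80, SE 0.11, edgeR adjusted p = 4.9e-06). Pdgfra stood at 75.8, 83.8 and 86.6 and 84.9, 85.3 and 131 CPM (edgeR adjusted p = 0.46). Lymphatic markers rose in 2 of 6 and fell in 1. Pdpn, a marker of lymphatic vessels that injured fibroblasts can also express, rose from 10.2, 9.01 and 7.67 to 72.1, 54.3 and 128 CPM (log2 fold change 3.09, SE 0.28, edgeR adjusted p = 2.9e-05). Prox1, of the same list, fell from 83.3, 82 and 94.5 to 56.5, 63.4 and 72.7 CPM (log2 fold change -0.57). Smooth muscle markers fell in 2 of 8, a share at the background, dendritic cell markers in 2 of 5 and erythroid markers in 4 of 5, each with none higher. The smooth muscle sum had means of 1052 CPM in sham and 798 CPM in injured hearts. Its most abundant marker alone had means of 813 and 574 CPM, so the lower sum rests largely on that gene. Mesothelial markers had 1 of 8 higher and 2 lower, and T and NK lymphocyte markers 1 of 6 higher and 2 lower. Atrial cardiomyocyte markers were not called in any of 4 tested, and neither were 2 adipocyte and 3 skeletal muscle markers. Of 5 lung markers only Ager was tested, at 0.682, 0.66 and 0.661 and 5.85, 4.71 and 1.96 CPM (log2 fold change 2.51, SE 0.41, edgeR adjusted p = 0.0008), and mast cell markers were too low to test.

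**Figure D3:**
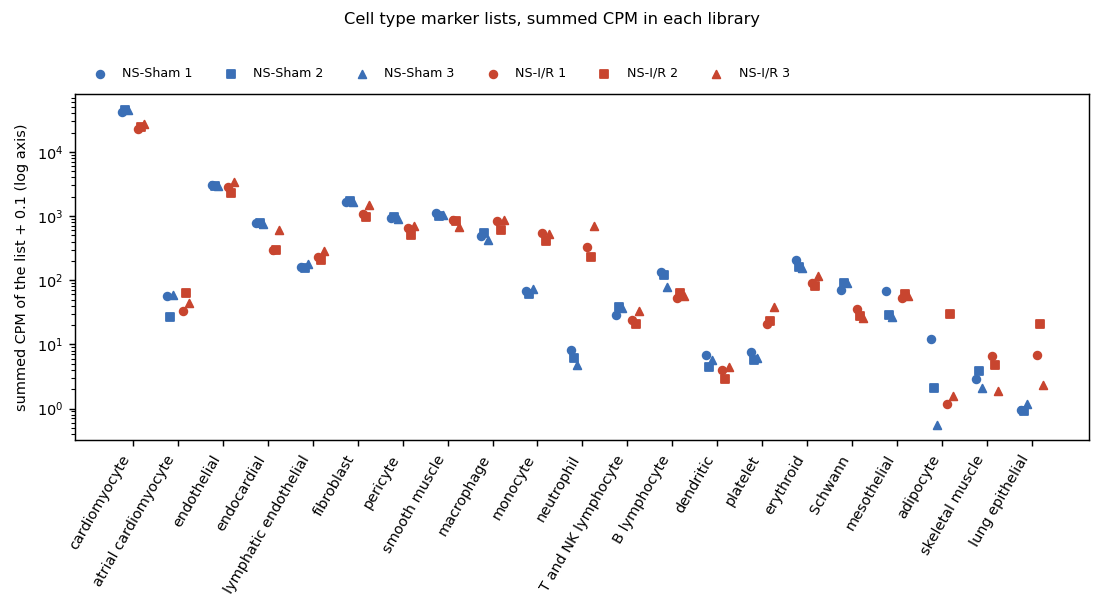
Summed CPM (plus 0.1, log axis) of the 21 marker lists with a tested member in each library, with sham in blue, NS-I/R in red and the shape giving the replicate. Neutrophil, monocyte, macrophage, platelet, lymphatic endothelial and lung sums lie higher in every NS-I/R library than in any sham library. Cardiomyocyte, endocardial, fibroblast, pericyte, smooth muscle, B lymphocyte, erythroid and Schwann sums lie lower, as do dendritic sums by a narrow margin. Most of the smooth muscle sum is that of its most abundant marker. NS-I/R 2 has the highest adipocyte and lung sums.

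Nuclei were also assigned to a type where at least 3 markers of that type, and at least 2 more than of any other, were detected. The markers that assign nuclei themselves changed, so the shares are a description and not a count of cells. Cardiomyocyte-marker nuclei made up 30.2 ± 0.853% of nuclei in sham and 23.7 ± 3.75% in injured hearts (SD, n = 3), endothelial 29.7 ± 1.57% and 28.3 ± 2.03%, fibroblast 9.06 ± 1.98% and 8.12 ± 2.16%, and macrophage or monocyte 3.19 ± 0.776% and 5.50 ± 0.999%. Neutrophil-marker nuclei numbered 2 in all 3 sham libraries and 412 in the injured ones, with median UMIs of 1020 to 1066 against 6507 to 6722 in cardiomyocyte-marker nuclei. Lymphatic-marker nuclei numbered 2 and 9, while Prox1 had 5753 UMIs in sham and 4618 in injured hearts. The fall of Prox1 is therefore not a measure of lymphatic cells. Smooth muscle-marker nuclei numbered 24 in sham and 50 in injured hearts, and Schwann-marker nuclei 7 and 7, so neither followed the lower summed CPM of its markers. Unassigned nuclei made up 21.8 ± 5.03% and 27.2 ± 3.00%. At the limits of the rule, 227 nuclei had exactly 3 markers and 4242 exactly 2 more than the next type, while 4715 missed a type by 1 marker of lead. Transcripts that mark one type were also counted in nuclei of another, since Ttn stood at 1116 ± 104 CPM in neutrophil-marker nuclei of injured hearts and S100a9 at 15.9 ± 9.68 CPM in cardiomyocyte-marker nuclei.

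Pathways were described by 40 gene lists with 628 genes, of which 619 were tested, and list counts are read against the 24.2% of all genes called in each direction and a median over all genes of 0.00. Chemokines, which guide leukocytes, rose in 10 of 16 and fell in 1, with a median log2 fold change of 2.78. Cxcl1 was at 3.52, 2.41 and 2.84 CPM in sham and 126, 74 and 41.7 CPM in injured hearts (log2 fold change 4.67, SE 0.38, edgeR adjusted p = 1.6e-05). Cxcl2 was at 0.284, 0.316 and 0.793 and 177, 84 and 32.5 CPM (log2 fold change 7.70, SE 0.74, edgeR adjusted p = 3.7e-05, or 6.96 without NS-I/R 1). Cxcl5 was at 0.341, 0.746 and 0.529 and 106, 91.7 and 65.7 CPM (log2 fold change 7.10, SE 0.28, edgeR adjusted p = 7.9e-07). All of these signal through the neutrophil receptor Cxcr2, which itself went from 0.398, 0.201 and 0.198 to 17.7, 9.23 and 24.8 CPM (log2 fold change 5.91, SE 0.55, edgeR adjusted p = 3.1e-05). Of 10 chemokine and leukocyte growth factor receptors, 7 were higher and none lower. The 3 ligands were highest in NS-I/R 1 and lowest in NS-I/R 3, whereas Cxcr2 was highest in NS-I/R 3. Ccl2, the main attractant of Ccr2-bearing monocytes, was at 3.12, 3.82 and 4.23 and 127, 80.3 and 72.8 CPM (log2 fold change 4.51, SE 0.23, edgeR adjusted p = 1.6e-06). Ccl7, another of its ligands, was at 1.25, 2.15 and 3.7 and 24.7, 21 and 22 CPM (log2 fold change 3.14, SE 0.30, edgeR adjusted p = 3.3e-05). Cxcl9, a lymphocyte attractant induced by interferon, was the member that fell, from 0.909, 1.44 and 1.98 to 0.594, 0.309 and 0.251 CPM (log2 fold change -2.03, SE 0.42, edgeR adjusted p = 0.0029). Cxcl12, which holds marrow-derived cells in tissue, stood at 48, 42.7 and 52 and 62.9, 39 and 53.6 CPM (edgeR adjusted p = 0.97).

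In injured hearts the UMIs of these chemokines were spread over the nucleus types. Fibroblast-marker nuclei went from 2.79 ± 0.809 to 222 ± 47.1 CPM of Cxcl5 (mean ± SD, n = 3) and held 19.9% of its UMIs, while unassigned nuclei held 52.3%. Ccl2 reached 592 ± 44.6 CPM in macrophage or monocyte-marker nuclei, from 14.5 ± 8.78 CPM. Cxcl2 had its highest mean in neutrophil-marker nuclei, with a wide spread between hearts, at 935 ± 814 CPM. With all leukocyte-marker nuclei left out, 10 members were higher and 1 lower (24.8% and 23.7% of all genes), and the median was 2.85, although leukocyte RNA in other nuclei remained and its part was not tested.

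Promoter sequences are shown for chemokine and NF-kB feedback genes that rose together and are known targets of NF-kB. RefSeq windows of 250 bases before the start (GRCm38.p6) were matched for 21 of the 30 genes of the chemokine and NF-kB lists and searched on both strands for GGGANNNNCC, a core found in binding sites of this factor, overlapping matches included. Capitals mark the matches, and sequences run 5′ to 3′ on the gene's strand, at chr5:90890995-90891244 (+) for Cxcl1, chr5:90903649-90903898 (+) for Cxcl2, chr5:90785851-90786100 (+) for Cxcl3 and chr12:55492648-55492897 (-) for Nfkbia.
Cxcl1: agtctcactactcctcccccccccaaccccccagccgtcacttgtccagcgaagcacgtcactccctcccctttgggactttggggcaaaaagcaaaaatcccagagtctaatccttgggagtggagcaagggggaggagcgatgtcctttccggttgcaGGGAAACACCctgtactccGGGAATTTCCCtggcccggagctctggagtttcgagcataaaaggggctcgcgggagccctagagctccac
Cxcl2: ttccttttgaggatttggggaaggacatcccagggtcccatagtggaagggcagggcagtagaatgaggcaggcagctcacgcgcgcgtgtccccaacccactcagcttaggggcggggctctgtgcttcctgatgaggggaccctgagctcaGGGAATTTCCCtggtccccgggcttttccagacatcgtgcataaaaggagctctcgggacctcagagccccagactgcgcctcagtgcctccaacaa
Cxcl3: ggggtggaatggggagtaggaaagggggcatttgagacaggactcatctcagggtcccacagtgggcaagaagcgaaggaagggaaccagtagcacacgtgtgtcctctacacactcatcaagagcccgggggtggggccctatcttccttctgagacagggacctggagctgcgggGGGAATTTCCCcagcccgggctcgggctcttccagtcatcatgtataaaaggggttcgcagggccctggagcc
Nfkbia: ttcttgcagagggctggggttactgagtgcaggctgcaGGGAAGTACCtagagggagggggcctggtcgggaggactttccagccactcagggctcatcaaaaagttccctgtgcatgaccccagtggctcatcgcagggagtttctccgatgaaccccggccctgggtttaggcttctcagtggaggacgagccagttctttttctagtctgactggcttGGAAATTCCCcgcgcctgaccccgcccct
The Cxcl genes held their matches within 97 bases of the start, and Nfkbia held 1 from 29 to 20 bases before it and 1 from 212 to 203 bases before it. Of the 15 matched members that rose, 10 held the core, as did 1 of 5 that were not called and the 1 that fell (Cxcl9), against 19.67% of all 27025 genes with a window and 17.63% of all 32851 windows. A match is a description of letters, not of binding.

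The NF-kB list itself rose in 12 of 14 and fell in none, with a median of 1.11. Nfkbia, the inhibitor that returns NF-kB to the cytoplasm and is induced by it, went from 43.2, 41.4 and 32.3 to 130.3, 106 and 85.6 CPM (log2 fold change 1.33, SE 0.17, edgeR adjusted p = 0.00018). Tnfaip3, the feedback enzyme A20, was at 3.35, 3.1 and 2.58 and 17.8, 12.9 and 9.78 CPM (log2 fold change 2.03, SE 0.23, edgeR adjusted p = 9.3e-05). Nfkbiz, a nuclear co-regulator needed for Il6, was at 25.7, 25.3 and 26.4 and 137, 95.5 and 89 CPM (log2 fold change 1.92, SE 0.16, edgeR adjusted p = 1.6e-05). Bcl3, a nuclear partner of NF-kB, was at 7.56, 5.68 and 6.35 and 36.9, 31.5 and 25.9 CPM (log2 fold change 2.14, SE 0.17, edgeR adjusted p = 1.4e-05). All 4 were highest in NS-I/R 1 and lowest in NS-I/R 3, and in none did the groups overlap. The subunit genes Relb and Nfkb2 had log2 fold changes of 1.27 and 1.10. Nfkb1, the most abundant member at 242, 239 and 234 and 325, 292 and 278 CPM, was not called over all 6 hearts (edgeR adjusted p = 0.12) and was called without NS-I/R 3.

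Interleukin-1 genes rose in 10 of 14, with none lower. Il1b, the cytokine, stood at 0.966, 0.258 and 0.264 and 34.9, 16.8 and 18.4 CPM (log2 fold change 5.51, SE 0.49, edgeR adjusted p = 2.5e-05, or 6.30 without NS-Sham 1). Its natural antagonist Il1rn was at 0.0568, 0.0861 and 0 and 5.44, 4.13 and 5.18 CPM (log2 fold change 6.14, SE 0.48, edgeR adjusted p = 1.2e-05, or 6.98 without NS-Sham 2). The signalling receptor Il1r1 was at 103, 97.7 and 91.7 and 325, 329.9 and 208 CPM (log2 fold change 1.43, SE 0.17, edgeR adjusted p = 0.00014). The decoy receptor Il1r2, carried by neutrophils, was at 0.795, 0.66 and 0.859 and 80.5, 52.4 and 135 CPM (log2 fold change 6.74, SE 0.50, edgeR adjusted p = 8.9e-06). Antagonist and decoy thus rose along with the cytokine. Nlrp3, the sensor of the inflammasome that matures interleukin-1, was at 2.27, 2.18 and 1.12 and 23, 15 and 12.3 CPM (log2 fold change 3.01, SE 0.36, edgeR adjusted p = 0.00013). Casp1, the protease of that complex, was at 2.56, 3.01 and 2.91 and 3.89, 4.09 and 2.3 CPM (edgeR adjusted p = 0.69). Gsdmd, its pore-forming substrate, was at 12.3, 14.1 and 10.9 and 7.13, 6.29 and 16.3 CPM (edgeR adjusted p = 0.21).

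Interleukin-6 family genes rose in 10 of 13 and fell in 2. Besides Il6, the receptor for oncostatin M, Osmr, went from 81.8, 79.2 and 77.9 to 387, 360.3 and 213 CPM (log2 fold change 1.88, SE 0.20, edgeR adjusted p = 6.2e-05). The feedback inhibitor Socs3 went from 1.48, 2.35 and 3.11 to 63.5, 55.2 and 36.2 CPM (log2 fold change 4.35, SE 0.31, edgeR adjusted p = 8.2e-06). Lifr, the receptor for leukemia inhibitory factor, moved the other way, from 130.2, 161 and 118 to 85.9, 72.2 and 92.1 CPM (log2 fold change -0.85, SE 0.13, edgeR adjusted p = 0.00057), as did Il11ra1 (-0.53). Osmr thus rose where its sister receptor Lifr fell, both of which pair with the shared chain Il6st (103, 98.9 and 104 and 149, 149 and 153 CPM, log2 fold change 0.43, SE 0.09, edgeR adjusted p = 0.0029). In cardiomyocyte-marker nuclei Osmr went from 13.9 ± 0.922 to 213 ± 96.7 CPM, and these nuclei held 32.9% of its UMIs in injured hearts.

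Toll-like receptors, the sensors of microbial and damage products, rose in 9 of 16 and fell in 2. Tlr4 was the most abundant, at 217, 210.4 and 204 and 473, 439 and 363 CPM (log2 fold change 0.88, SE 0.13, edgeR adjusted p = 0.00037), and 72.5% of its UMIs in injured hearts lay in cardiomyocyte-marker nuclei. Tlr2 and the co-receptor Cd14 rose from 1.25, 1.12 and 1.26 to 10.9, 5.87 and 5.81 CPM and from 1.14, 1.12 and 1.12 to 16.6, 9.69 and 12.2 CPM (log2 fold changes 2.51 and 3.37). Irak3, which restrains the pathway, rose from 35.7, 38.9 and 33.6 to 138, 124 and 67 CPM (log2 fold change 1.48, SE 0.23, edgeR adjusted p = 0.00059). Of the receptors of nucleic acids, Tlr13 rose from 0.852, 0.746 and 0.33 to 9.19, 8.38 and 11.8 CPM (log2 fold change 3.73, SE 0.35, edgeR adjusted p = 3.1e-05). Tlr3 fell from 10.1, 10.1 and 10.3 to 6.77, 5.33 and 7.94 CPM (log2 fold change -0.74, SE 0.17, edgeR adjusted p = 0.0048, not called with only nuclei of at most 1% mitochondrial UMIs). Tlr7, a receptor that enpatoran blocks, stood at 8.64, 10.3 and 5.29 and 10.1, 8.26 and 8.06 CPM (edgeR adjusted p = 0.95).

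Interferon-stimulated genes went the other way from the chemokine, interleukin and NF-kB genes. Of 20 tested, 0 rose and 14 fell, with a median of -0.94. Gbp3 and Gbp7, guanylate-binding proteins, went from 8.01, 13.7 and 16.6 to 5.3, 4.28 and 3.63 CPM and from 25.7, 38.2 and 37.1 to 17.1, 16.4 and 17.3 CPM (log2 fold changes -1.67 and -1.13). Rsad2, the antiviral enzyme viperin, was at 14.4, 18.6 and 22.9 and 10.2, 6.25 and 11.9 CPM (log2 fold change -1.12, SE 0.25, edgeR adjusted p = 0.0043). Parp14 was at 65.3, 69.9 and 61.5 and 29.1, 27 and 45.6 CPM (log2 fold change -1.09, SE 0.18, edgeR adjusted p = 0.00086). Isg15, a small modifier protein, and Irf7, the regulator of type I interferon, were not called, at 1.59, 1.61 and 1.92 and 1.78, 1.2 and 1.59 CPM and at 5.62, 6.49 and 5.29 and 2.83, 1.43 and 5.89 CPM. NS-I/R 3 was nearest to sham in Parp14 and Irf7, and without it 17 of 20 fell. The count lower was 8 without NS-Sham 2 (18.8% of all genes), 8 with only nuclei of at most 1% mitochondrial UMIs (23.4%), where Rsad2 was not called, and 6 of the 15 tested in cardiomyocyte-marker nuclei (21.5%).

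Adhesion molecules rose in 9 of 12 and fell in 1, and in cardiomyocyte-marker nuclei rose in 5 of 10 (23.6% of all genes). Selp and Sele encode the selectins by which inflamed endothelium catches rolling leukocytes. Selp was at 0.398, 0.775 and 0.529 and 30.8, 27.8 and 14 CPM (log2 fold change 5.19, SE 0.67, edgeR adjusted p = 0.0002). Sele was at 0.341, 0.402 and 0.793 and 9.87, 8.18 and 3.51 CPM (log2 fold change 3.74, SE 0.59, edgeR adjusted p = 0.00068). Endothelial-marker nuclei held 81.4% of the Selp UMIs in injured hearts. Itgam and Itgb2 encode the Mac-1 integrin of neutrophils and monocytes. Itgam was at 6.14, 6.66 and 6.81 and 222, 176 and 147 CPM (log2 fold change 4.66, SE 0.26, edgeR adjusted p = 2.4e-06). Itgb2 was at 3.64, 2.96 and 2.18 and 21.6, 18.2 and 23.5 CPM (log2 fold change 2.70, SE 0.24, edgeR adjusted p = 2.2e-05). Icam1, their endothelial ligand, was at 10.2, 13.3 and 15.3 and 38.4, 29.2 and 34.7 CPM (log2 fold change 1.26, SE 0.21, edgeR adjusted p = 0.0008). Vcam1, an adhesion receptor for monocytes, was at 24.1, 27.4 and 27.3 and 27.6, 23.4 and 27.9 CPM (edgeR adjusted p = 0.49).

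Acute phase genes rose in 9 of 10, with none lower and a median of 4.79. Lcn2, the iron-binding lipocalin, was at 0.739, 0.402 and 0.925 and 89.7, 72.8 and 49 CPM (log2 fold change 6.67, SE 0.41, edgeR adjusted p = 4.9e-06). Ptx3, a pattern-recognition pentraxin, was at 0.398, 0.258 and 0.198 and 33.9, 18.3 and 5.22 CPM (log2 fold change 5.93, SE 0.71, edgeR adjusted p = 0.00013, or 5.23 without NS-I/R 1). Lrg1, a secreted glycoprotein, was at 4.32, 2.93 and 5.35 and 58.3, 54.9 and 41.7 CPM (log2 fold change 3.53, SE 0.31, edgeR adjusted p = 2.4e-05). Complement stayed near the background, with 3 of 15 higher and 2 lower, although 6 were higher with library totals in place of TMM (30.6% of all genes) and 5 were lower without NS-I/R 3 (30.1%). The receptors C5ar1 and C3ar1 were among the higher, with log2 fold changes of 2.13 and 1.58. Genes of apoptotic cell uptake rose in 7 of 16, or in 11 with library totals, and fell in 1. The uptake receptor Mertk stood at 79.2, 90.0 and 78 and 119, 105 and 118 CPM (edgeR adjusted p = 0.051). Lgals3, a lectin of activated macrophages, went from 2.9, 2.7 and 1.98 to 23.5, 22.9 and 32.4 CPM (log2 fold change 3.22, SE 0.19, edgeR adjusted p = 4.4e-06). Spp1, osteopontin, went from 0.568, 0.488 and 0.463 to 11, 6.37 and 76.1 CPM (log2 fold change 5.77, SE 1.02, edgeR adjusted p = 0.0013, or 3.95 without NS-I/R 3), with NS-I/R 3 well above the other injured hearts.

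Sarcomere genes fell in 12 of 18 and rose in 1, with a median of -1.11. The myosin heavy chain of the adult mouse ventricle, Myh6, was at 5429, 5682 and 6416 CPM in sham and 2539.8, 2768 and 2568 CPM in injured hearts (log2 fold change -1.29, SE 0.13, edgeR adjusted p = 5.3e-05). Myh7, whose rise is a textbook sign of the fetal programme, was also lower, at 158, 146 and 162 and 71.5, 56.2 and 80.9 CPM (log2 fold change -1.30, SE 0.14, edgeR adjusted p = 5.9e-05). Mybpc3, myosin-binding protein C, went from 521, 571 and 681 to 116, 121 and 205 CPM (log2 fold change -2.15, SE 0.20, edgeR adjusted p = 3.5e-05). Myom2, an M-band protein, went from 382, 398 and 427 to 64.9, 86.8 and 129.9 CPM (log2 fold change -2.24, SE 0.20, edgeR adjusted p = 2.7e-05). Tnni3, cardiac troponin I, went from 954, 673 and 1013 to 262, 282 and 353 CPM (log2 fold change -1.69, SE 0.16, edgeR adjusted p = 3.7e-05). Tpm1, tropomyosin, was the member that rose, from 1012, 687 and 1251 to 2981, 3739.7 and 1338 CPM (log2 fold change 1.33, SE 0.33, edgeR adjusted p = 0.0083), and it was not called with all deposited barcodes (log2 fold change 0.64). Cardiac actin, Actc1, stood at 462, 221 and 580.3 and 263, 294 and 391 CPM (edgeR adjusted p = 0.13). The Z-disc crosslinker Actn2 was at 1238, 802 and 828 and 909, 866 and 623 CPM (edgeR adjusted p = 0.28). Ttn, Myh6, Tnnt2 and Myom1 also served to assign cardiomyocyte nuclei. Within cardiomyocyte-marker nuclei alone the list had 11 of 18 lower and 1 higher, with a median of -0.93, beside a background there of 21.5% lower. Myh7b fell in these nuclei from 469 ± 29.9 to 23.4 ± 14.2 CPM. Mhrt, a long non-coding RNA antisense in the myosin locus, fell from 937, 998 and 1079.9 to 267, 271 and 248 CPM (log2 fold change -2.07, SE 0.10, edgeR adjusted p = 1.4e-06), but the counting strand is not given in the sources used here, and its reads cannot be told apart from those of overlapping genes.

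Cardiomyocyte stress genes rose in 11 of 14 and fell in none, with a median of 1.59, although the summed markers of their cells were lower. Ankrd1, a stretch-sensing repressor, went from 256, 321 and 488 to 2232, 2569.6 and 1371 CPM (log2 fold change 2.41, SE 0.31, edgeR adjusted p = 0.00018). Flnc, a filamin that repairs damaged sarcomeres, went from 90.3, 51.8 and 68.6 to 412, 518 and 478 CPM (log2 fold change 2.61, SE 0.19, edgeR adjusted p = 8.5e-06). Nppb, the natriuretic peptide used as a blood test of heart failure, was at 27.3, 16.7 and 58.4 and 165, 148 and 171 CPM (log2 fold change 2.12, SE 0.36, edgeR adjusted p = 0.00096, or 2.76 without NS-Sham 3). Nppa was at 35.1, 10.3 and 38.1 and 37.9, 70.2 and 98.3 CPM (edgeR adjusted p = 0.086). Xirp2, an actin-binding protein of intercalated discs, was at 505, 531 and 696 and 1386, 1343 and 2988 CPM (log2 fold change 1.58, SE 0.29, edgeR adjusted p = 0.0016) and highest in NS-I/R 3. Gdf15, a stress hormone, was at 0.625, 0.316 and 0.595 and 11.7, 6.91 and 12.6 CPM (log2 fold change 4.28, SE 0.35, edgeR adjusted p = 1.5e-05). In cardiomyocyte-marker nuclei, which held 87.9% of the Ankrd1 UMIs in injured hearts, Ankrd1 went from 553 ± 184 to 3715 ± 912 CPM, and the list rose there in 12 of 14, beside 23.6% of all genes.

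Ion channel and calcium genes fell in 10 of 18 and rose in 1. The 4 largest falls of the list were potassium channel genes, Kcnip2 among them. Kcnd2, the pore partner of Kcnip2, was at 1803, 1961 and 2133 and 321, 422 and 373 CPM (log2 fold change -2.53, SE 0.16, edgeR adjusted p = 4.9e-06). Kcnj3, a subunit of the acetylcholine-gated channel, was at 373, 475 and 439 and 63, 104 and 76.2 CPM (log2 fold change -2.53, SE 0.20, edgeR adjusted p = 1.2e-05). Kcnj11, the pore of the ATP-sensitive channel, was at 18.6, 14 and 17.6 and 3.79, 3.74 and 9.36 CPM (log2 fold change -1.71, SE 0.31, edgeR adjusted p = 0.0014). Of the calcium genes, Cacna1c, the L-type channel, went from 6845, 7947 and 6788 to 3789, 3989.7 and 5591 CPM (log2 fold change -0.83, SE 0.17, edgeR adjusted p = 0.0027). Pln, the brake on the calcium pump, went from 1127, 1049 and 1190.3 to 252, 349.5 and 553 CPM (log2 fold change -1.68, SE 0.23, edgeR adjusted p = 0.00025). The pump Atp2a2 stood at 2369.6, 2009 and 2084 and 1975, 2191 and 1524 CPM (edgeR adjusted p = 0.15). Adrenergic genes fell in 8 of 14 and rose in 1. The beta-1 receptor Adrb1 went from 29, 26.8 and 32.4 to 11.1, 13.6 and 22.7 CPM (log2 fold change -1.03, SE 0.21, edgeR adjusted p = 0.0031). Grk5, a kinase that silences such receptors, rose from 397, 346 and 321 to 538, 522 and 723 CPM (log2 fold change 0.61, SE 0.13, edgeR adjusted p = 0.0034).

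Breakdown of branched-chain amino acids fell in 10 of 13 with none higher and a median of -0.91. Bckdha, of the gate enzyme of the pathway, was at 90.0, 84.5 and 89.6 and 38.7, 38.6 and 37.7 CPM (log2 fold change -1.33, SE 0.13, edgeR adjusted p = 3.7e-05). Ivd, a dehydrogenase of leucine breakdown, was at 78, 90.3 and 86.9 and 45.9, 42.7 and 41.1 CPM (log2 fold change -1.11, SE 0.10, edgeR adjusted p = 2.9e-05). Both were even within each group. Fatty acid oxidation fell in 10 of 19 with none higher, or in 6 within cardiomyocyte-marker nuclei (21.5% of all genes). Slc27a1, a fatty acid importer, went from 253, 190.4 and 231 to 76.8, 106 and 90.7 CPM (log2 fold change -1.43, SE 0.20, edgeR adjusted p = 0.00029). Hadh, a dehydrogenase of the oxidation spiral, went from 68.4, 64.3 and 82.2 to 29.4, 29.6 and 32.4 CPM (log2 fold change -1.37, SE 0.15, edgeR adjusted p = 7.2e-05). Acadm, which handles medium-chain fatty acids, went from 182, 194 and 209 to 106, 102 and 109 CPM (log2 fold change -1.02, SE 0.13, edgeR adjusted p = 0.0002). The uptake receptor Cd36 stood at 1448, 1659.5 and 1288 and 1861, 2055 and 1324 CPM (edgeR adjusted p = 0.63). The carnitine transferase Cpt1b was at 164, 143 and 171 and 126, 136 and 109 CPM (edgeR adjusted p = 0.054). Citrate cycle genes fell in 7 of 14 and rose in 1. Idh2 fell from 262, 259 and 299 to 97.1, 105 and 131 CPM (log2 fold change -1.44, SE 0.14, edgeR adjusted p = 4.6e-05). Pdk4, a brake on glucose oxidation, was the 1 that rose, at 219, 154 and 145 and 694, 827 and 167 CPM (log2 fold change 1.59, SE 0.57, edgeR adjusted p = 0.041), but NS-I/R 3 lay among the sham hearts and the call was lost without NS-I/R 1, NS-I/R 2 or any sham library. The call of Pdk4 remained without NS-I/R 3, at a log2 fold change of 2.02.

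Respiratory chain subunits fell in 18 of 20 with none higher. In 8 of the 20 the groups did not overlap (56.1% of all genes), and in others, such as Ndufa4 and Cox4i1, NS-Sham 2 lay at the level of the injured hearts. Ndufa4, a subunit of cytochrome oxidase, was at 172, 78.9 and 168 and 81.4, 78.4 and 81.6 CPM (log2 fold change -0.92, SE 0.23, edgeR adjusted p = 0.0086). Cox4i1, of the same complex, was at 317, 144 and 301 and 139, 149 and 155 CPM (log2 fold change -0.91, SE 0.24, edgeR adjusted p = 0.01). The mitochondrial share of UMIs given above has the same order in the sham libraries, highest in NS-Sham 1 and 3. With that share as a covariate 9 of 20 fell (17.9% of all genes), with a median of -0.36 in place of -0.65, and Ndufa4 and Cox4i1 were not called (log2 fold changes -0.36 and -0.34). Ndufs4, a subunit of complex I, at 199.6, 212 and 207 and 133, 144 and 156 CPM, was lower than in every sham library (log2 fold change -0.65, SE 0.09, edgeR adjusted p = 0.00027). Regulators of mitochondrial mass fell in 7 of 14 and rose in 1. The estrogen-related receptor Esrrg went from 1095, 1116 and 1070.4 to 237, 264 and 449.8 CPM (log2 fold change -1.93, SE 0.20, edgeR adjusted p = 5.9e-05). The co-activator Ppargc1a stood at 556, 551 and 434 and 370.2, 322 and 460.2 CPM (edgeR adjusted p = 0.31).

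Glycolysis and hypoxia genes rose in 15 of 22 and fell in 2. Pfkp, a phosphofructokinase, was at 54.7, 52.8 and 51.2 and 322, 239.9 and 173 CPM (log2 fold change 2.08, SE 0.20, edgeR adjusted p = 3.3e-05). The glucose transporter Slc2a1 was at 4.15, 3.85 and 4.43 and 40.9, 21.5 and 34.7 CPM (log2 fold change 2.83, SE 0.26, edgeR adjusted p = 2.8e-05). The lactate exporter Slc16a3 was at 1.42, 1.18 and 2.25 and 22.4, 13.6 and 21.3 CPM (log2 fold change 3.48, SE 0.38, edgeR adjusted p = 8.1e-05). Pkm, pyruvate kinase, went from 94.6, 96.3 and 117 to 338, 341 and 285 CPM (log2 fold change 1.52, SE 0.13, edgeR adjusted p = 2.4e-05). Vegfa, the vessel growth factor induced by hypoxia, was 1 of the 2 that fell, at 456, 464 and 471 and 241, 175 and 479 CPM (log2 fold change -0.78, SE 0.29, edgeR adjusted p = 0.049). NS-I/R 3 lay above all sham hearts in Vegfa, and the call was lost when any 1 of the other 5 libraries was left out. The insulin-responsive transporter Slc2a4 moved against Slc2a1, from 45.7, 35.8 and 53.4 to 23, 22.7 and 20.7 CPM (log2 fold change -1.15, SE 0.15, edgeR adjusted p = 0.00018), in a list of insulin genes with 6 of 13 lower and 1 higher.

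Chaperones of the heat shock response rose in 10 of 17 with none lower and a median of 0.57. Hspa1a and Hspa1b, the inducible HSP70 genes, were at 1.76, 0.832 and 1.32 and 1.31, 1.32 and 1.12 CPM in sham and 242, 89.1 and 103 and 201, 77.1 and 96.4 CPM in injured hearts, with NS-I/R 1 highest (log2 fold changes 6.73 and 6.48, edgeR adjusted p = 5.7e-05 and 1.5e-05). Without NS-I/R 1 that of Hspa1a was 6.14. They are near-identical copies, and how their reads were divided is not given in the sources used here. Hspb1, a small chaperone, was at 24.9, 15 and 27.8 and 133, 135 and 127 CPM (log2 fold change 2.42, SE 0.19, edgeR adjusted p = 1.2e-05). Hsp90aa1, the inducible HSP90, was at 53.6, 35.2 and 37.9 and 242, 136 and 134 CPM (log2 fold change 1.89, SE 0.24, edgeR adjusted p = 0.00018). Bag3, a partner of these chaperones in muscle, stood at 241, 173 and 165 and 272, 216 and 151 CPM (edgeR adjusted p = 0.96). Promoters of Hspa1a at chr17:34972157-34972406 (-) and Hspb1 at chr5:135887669-135887918 (+) are shown because both rose and heat shock factor binds inverted GAA repeats. Windows, build and orientation are as for the chemokines, and capitals mark GAANNTTC or TTCNNGAA, found on either strand.
Hspa1a: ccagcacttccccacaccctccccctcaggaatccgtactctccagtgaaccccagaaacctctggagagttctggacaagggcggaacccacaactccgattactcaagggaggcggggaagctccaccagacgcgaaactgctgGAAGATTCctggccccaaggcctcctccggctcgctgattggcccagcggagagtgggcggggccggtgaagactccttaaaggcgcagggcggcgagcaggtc
Hspb1: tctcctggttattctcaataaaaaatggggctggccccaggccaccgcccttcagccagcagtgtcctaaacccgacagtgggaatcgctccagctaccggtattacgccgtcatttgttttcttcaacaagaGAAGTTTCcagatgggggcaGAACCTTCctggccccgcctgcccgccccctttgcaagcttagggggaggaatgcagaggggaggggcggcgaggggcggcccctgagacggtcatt
Hspa1a and Hspa1b held a match from 104 to 97 bases before the start, and Hspb1 held 2, from 117 to 110 and from 97 to 90 bases before it. Of 12 matched list members, 5 of the 6 that rose and 2 of the 6 that were not called held the core, against 14.55% of all genes with a window and 12.84% of all windows.

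Unfolded protein and amino acid stress genes rose in 13 of 17 and fell in 1, with a median of 1.25, or 0.54 without NS-I/R 3, where 11 rose. Hspa5, the chaperone BiP of the endoplasmic reticulum, was at 69.7, 54 and 62.8 and 202, 148 and 197 CPM (log2 fold change 1.42, SE 0.14, edgeR adjusted p = 4.8e-05). Xbp1, a transcription factor of the response, was at 23.1, 21.3 and 22.9 and 69.3, 64.3 and 67.8 CPM (log2 fold change 1.45, SE 0.09, edgeR adjusted p = 5.8e-06). Atf4, the factor that turns on amino acid synthesis, was at 19.9, 19.7 and 21.6 and 73.3, 75.2 and 59 CPM (log2 fold change 1.63, SE 0.13, edgeR adjusted p = 1.1e-05). Pdia4, a protein-folding enzyme, stood highest in NS-I/R 3, at 7.73, 8.09 and 7.93 and 12.3, 12.8 and 37.3 CPM (log2 fold change 1.25, SE 0.41, edgeR adjusted p = 0.028), a call lost without NS-I/R 3 (0.53) or without any 1 of the sham libraries. Herpud1, which helps to clear misfolded proteins, fell from 80.6, 97.5 and 76 to 52.2, 41.8 and 51.5 CPM (log2 fold change -0.94, SE 0.15, edgeR adjusted p = 0.00062).

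Metallothionein and antioxidant genes rose in 11 of 16 with none lower. Mt1 and Mt2, which bind zinc and scavenge oxidants, were at 50.7, 29.2 and 40.3 and 466, 540.4 and 302 CPM (log2 fold change 3.33, SE 0.29, edgeR adjusted p = 2.2e-05) and 6.31, 2.78 and 3.77 and 301, 311 and 145 CPM (log2 fold change 5.79, SE 0.42, edgeR adjusted p = 8.3e-06). Hmox1, heme oxygenase, was at 1.93, 1.58 and 0.859 and 37.4, 27.8 and 36.7 CPM (log2 fold change 4.37, SE 0.32, edgeR adjusted p = 9.1e-06). Txnrd1, thioredoxin reductase, was at 45.9, 38.8 and 37.1 and 332, 316 and 146 CPM (log2 fold change 2.58, SE 0.27, edgeR adjusted p = 6.0e-05). In Mt1, Mt2 and Txnrd1, NS-I/R 3 was the lowest of the injured hearts and still above every sham heart. The master regulator Nfe2l2 stood at 202, 149 and 102 and 260.0, 257 and 148 CPM (edgeR adjusted p = 0.22).

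Of 20 immediate-early genes 11 rose and 0 fell. Fosl1, a partner of Jun proteins, went from 0.114, 0.316 and 0.264 to 31, 26.5 and 18.6 CPM (log2 fold change 6.52, SE 0.35, edgeR adjusted p = 1.9e-06). Myc, a growth regulator, went from 2.78, 2.04 and 2.31 to 32.7, 28.1 and 23.6 CPM (log2 fold change 3.45, SE 0.18, edgeR adjusted p = 1.5e-06). Fos and Fosb, which respond within minutes, were not called and overlapped between groups, at 5.17, 6.43 and 10.9 and 26.1, 14.3 and 7.9 CPM and at 0.795, 2.07 and 8.79 and 20.2, 12.9 and 2.59 CPM, although both were called higher without NS-I/R 3 or without NS-Sham 3. NS-Sham 1 held 52.5 CPM of Nr4a3, a gene of the same kind, against 3.67 and 3.24 CPM in the other sham hearts.

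Cell death genes rose in 13 of 19 and fell in 2. Bax, which permeabilizes mitochondria, was at 13.4, 14.3 and 12.9 and 32.4, 30.6 and 37.1 CPM (log2 fold change 1.16, SE 0.11, edgeR adjusted p = 2.8e-05). Its opponent Bcl2l1 was at 169, 225 and 145 and 430.2, 361 and 359.9 CPM (log2 fold change 0.96, SE 0.16, edgeR adjusted p = 0.00089). Ripk3, the kinase of necroptosis, was at 0.795, 0.775 and 1.06 and 4.71, 3.67 and 4.51 CPM (log2 fold change 2.17, SE 0.22, edgeR adjusted p = 5.5e-05). Its executioner Mlkl was at 15.3, 15.2 and 14.6 and 20.3, 15.2 and 23.9 CPM (edgeR adjusted p = 0.17). Ptgs2, cyclooxygenase 2, was at 1.93, 2.61 and 4.1 and 47.9, 18.1 and 14.3 CPM (log2 fold change 3.10, SE 0.48, edgeR adjusted p = 0.00058, or 2.38 without NS-I/R 1). Autophagy genes were close to the background, with 3 of 16 higher (5 without NS-I/R 3) and 2 lower.

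Matrix genes divided by kind. Among collagens 4 of 18 rose and 5 fell, a share near the background. Of the basement membrane collagens, Col4a1 went from 248, 186 and 212 to 985, 842 and 647 CPM (log2 fold change 1.81, SE 0.17, edgeR adjusted p = 3.1e-05). Col4a2 went from 242, 189.8 and 231 to 1025, 953 and 604 CPM (log2 fold change 1.83, SE 0.20, edgeR adjusted p = 7.5e-05). Col4a3, of the same family, fell from 50.7, 52 and 46.8 to 25.4, 19.7 and 20.0 CPM (log2 fold change -1.33, SE 0.13, edgeR adjusted p = 3.6e-05). In cardiomyocyte-marker nuclei Col4a1 went from 69.2 ± 4.25 to 666 ± 122 CPM, and in endothelial-marker nuclei from 496 ± 89.8 to 1224 ± 250.0 CPM. The fibrillar collagens of scar were highest in NS-I/R 3, with Col3a1 at 100.4, 77.6 and 108 and 53.6, 52.5 and 203 CPM (edgeR adjusted p = 0.95). Col1a1 was at 36.6, 28.5 and 35.7 and 33.1, 22.8 and 71.6 CPM (edgeR adjusted p = 0.64). Without NS-I/R 3, 12 of 18 collagens fell and 4 rose.

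Matricellular genes rose in 12 of 20 and fell in 2. Tnc, tenascin C, which marks injured matrix, was at 2.27, 2.76 and 2.38 and 391, 270.4 and 228 CPM (log2 fold change 6.75, SE 0.29, edgeR adjusted p = 7.9e-07). Thbs1, thrombospondin, was at 13, 7.86 and 13.4 and 208, 119 and 94.5 CPM (log2 fold change 3.51, SE 0.32, edgeR adjusted p = 2.6e-05). Fn1, fibronectin, was at 26, 20.4 and 21.6 and 151, 124 and 188 CPM (log2 fold change 2.63, SE 0.19, edgeR adjusted p = 7.8e-06). In injured hearts Tnc was spread over the nucleus types. Fibroblast-marker nuclei went from 2.27 ± 1.58 to 564 ± 79.6 CPM and held 15.34% of its UMIs there. Unassigned nuclei reached 850.5 ± 272.3 CPM and held 53.1%, and cardiomyocyte-marker nuclei held 17.75%. Neutrophil-marker nuclei stood at 489.2 ± 433.4 CPM and macrophage or monocyte-marker nuclei at 241.6 ± 306.8 CPM. The part of RNA carried between nuclei was not tested. Fn1 reached 1588 ± 35.7 CPM in macrophage or monocyte-marker nuclei, from 18 ± 16.2 CPM. Fap, the activated fibroblast protease, fell from 83.3, 90.4 and 69.2 to 49.1, 53.8 and 30.3 CPM (edgeR adjusted p = 0.0026). Acta2, the actin of myofibroblasts, stood at 40.3, 36.2 and 76.8 and 76.3, 73.8 and 59.7 CPM (edgeR adjusted p = 0.32).

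Proteases and their inhibitors rose in 14 of 19 and fell in 1, with a median of 1.82. Timp1, an inhibitor of matrix proteases, was at 0.682, 1.78 and 1.32 and 35, 30.5 and 67.2 CPM (log2 fold change 4.90, SE 0.40, edgeR adjusted p = 1.4e-05). Adamts4, which cuts proteoglycans, was at 1.19, 0.517 and 0.661 and 36.6, 26.8 and 21.1 CPM (log2 fold change 5.09, SE 0.35, edgeR adjusted p = 6.7e-06). Mmp8, the collagenase of neutrophils, was at 0, 0 and 0.132 and 8.69, 7.87 and 10.4 CPM, 2 UMIs in sham against 642. TGF-beta genes rose in 6 of 17 and fell in 3 (5 without NS-I/R 3), with Tgfb2 at 52.6, 50.7 and 54.1 and 296, 273 and 103 CPM (log2 fold change 1.97, SE 0.32, edgeR adjusted p = 0.0008). Ltbp2, a matrix protein of the latent TGF-beta binding family, was at 7.61, 7.49 and 8.99 and 28.9, 22.4 and 58 CPM (log2 fold change 2.04, SE 0.33, edgeR adjusted p = 0.00071).

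Vessel growth genes fell in 9 of 17 and rose in 5. The stabilizing ligand Angpt1 went from 272, 219 and 226 to 41.6, 68.2 and 83 CPM (log2 fold change -2.03, SE 0.25, edgeR adjusted p = 0.00014). Its opponent Angpt2 went from 8.47, 7.4 and 10.2 to 12.7, 12.1 and 23.4 CPM (log2 fold change 0.75, SE 0.24, edgeR adjusted p = 0.023, not called without NS-Sham 1 or 2). Pgf, placental growth factor, rose from 11.2, 15.7 and 10.7 to 74.3, 61 and 57.6 CPM (log2 fold change 2.21, SE 0.17, edgeR adjusted p = 1.1e-05). The co-receptor Nrp1 fell from 659, 661 and 656 to 309, 330.4 and 388 CPM (log2 fold change -1.08, SE 0.16, edgeR adjusted p = 0.0005). Aplnr, the apelin receptor, went from 7.73, 7.46 and 9.06 to 1.97, 1.24 and 2.05 CPM (log2 fold change -2.34, SE 0.26, edgeR adjusted p = 7.6e-05). With library totals in place of TMM 5 of 17 fell (18.3% of all genes), as did 5 of 17 with the mitochondrial share as a covariate (17.9%). In cardiomyocyte-marker nuclei 5 of 15 fell (21.5%). Without NS-Sham 1 or NS-Sham 2, 3 and 2 rose (19.3% and 19.6% of all genes). Angptl4, an inhibitor of lipoprotein lipase, rose from 10.2, 5.08 and 5.75 to 92.5, 98 and 72 CPM (log2 fold change 3.53, SE 0.38, edgeR adjusted p = 7.0e-05), and the lipase gene Lpl stood at 913, 626 and 862 and 738, 723 and 490.3 CPM (edgeR adjusted p = 0.082), in an endothelial lipid list with 3 of 12 higher and 2 lower, or 6 higher without NS-I/R 3. Among guidance genes 2 of 9 rose, none without NS-Sham 2 or NS-Sham 3, and 4 fell, with Robo2 at 32.5, 35.2 and 28.2 and 8.32, 5.52 and 8.23 CPM (log2 fold change -2.26, SE 0.19, edgeR adjusted p = 1.6e-05).

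Clock genes changed in both directions, 6 of 19 higher and 8 lower. Dbp and Hlf are output genes of the clock. Dbp went from 39.3, 62.9 and 70.8 to 14.7, 12.5 and 19.2 CPM (log2 fold change -2.04, SE 0.23, edgeR adjusted p = 9.9e-05). Hlf went from 76.8, 119.8 and 104 to 31.1, 32.6 and 26.7 CPM (log2 fold change -1.87, SE 0.18, edgeR adjusted p = 3.6e-05). Their opponent Nfil3 went from 6.42, 3.44 and 3.64 to 30.2, 17.8 and 19.8 CPM (log2 fold change 2.21, SE 0.30, edgeR adjusted p = 0.00026). Arntl, which encodes BMAL1, was at 50.6, 25.9 and 38.6 and 123, 95.7 and 66.3 CPM (log2 fold change 1.19, SE 0.26, edgeR adjusted p = 0.0041). Nr1d2, which represses it, was at 261, 304 and 272 and 140.2, 142 and 130.4 CPM (log2 fold change -1.15, SE 0.11, edgeR adjusted p = 3.5e-05). Cry1, a repressor of the clock, was at 11, 17.2 and 11.3 and 80.8, 79.2 and 23.1 CPM, with NS-I/R 3 nearer to sham (log2 fold change 2.07, SE 0.41, edgeR adjusted p = 0.0023). The hour at which hearts were collected is not given in the sources used here, and its part was not tested. Glucocorticoid targets were split, 6 of 12 higher and 2 lower. Fkbp5 rose from 136, 296 and 146 to 681, 617 and 455 CPM (log2 fold change 1.46, SE 0.28, edgeR adjusted p = 0.002), whereas Tsc22d3 fell from 156, 226 and 144 to 94.1, 84.6 and 127 CPM (log2 fold change -0.92, SE 0.18, edgeR adjusted p = 0.0025, not called with each nucleus weighing the same). Zbtb16 was highest in NS-Sham 2, at 924, 2769 and 1347 and 1324, 1168 and 1392 CPM (edgeR adjusted p = 0.22).

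Cell division genes stayed near the background, with 5 of 20 higher (3 without NS-Sham 2) and 2 lower. The 5 were Ccnd1, Pcna, Mcm5, Tyms and Birc5, with log2 fold changes from 0.70 for Ccnd1 to 0.99 for Birc5. The call of Mcm5 was lost without NS-I/R 3, NS-Sham 1 or NS-Sham 2, and that of Birc5 without NS-I/R 1, NS-I/R 2 or NS-Sham 2. Mki67 and Top2a, which mark dividing nuclei, stood at 4.37, 5.28 and 6.68 and 3.52, 5.33 and 2.01 CPM and at 3.98, 3.7 and 7.4 and 3.52, 2.28 and 1.92 CPM (edgeR adjusted p = 0.1 and 0.051). Cenpf, of the mitotic kinetochore, fell from 9.49, 13.3 and 12.6 to 5.26, 2.05 and 2.72 CPM (log2 fold change -1.97, SE 0.31, edgeR adjusted p = 0.00067). Ribosomal protein genes rose in 9 of 19 with none lower, led by Rpl3 at 25.7, 22.7 and 24.7 and 86.1, 80.2 and 95.5 CPM (log2 fold change 1.71, SE 0.10, edgeR adjusted p = 2.8e-06). Their count higher was 3 with all deposited barcodes (23.7% of all genes), 14 with each nucleus weighing the same (27.1%), 16 with only nuclei of at most 1% mitochondrial UMIs (23.2%) and 18 with the mitochondrial share as a covariate (17.2%). Of 8 nuclear long non-coding RNAs 4 rose and 3 fell. Malat1, the most abundant transcript, stood at 53311, 52353 and 63586 and 54183, 57083 and 67630.1 CPM (edgeR adjusted p = 0.81). Gas5, a growth-arrest RNA, rose from 41.6, 41.2 and 44.4 to 114, 108 and 199.9 CPM (log2 fold change 1.59, SE 0.22, edgeR adjusted p = 0.00029).

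**Figure D4:**
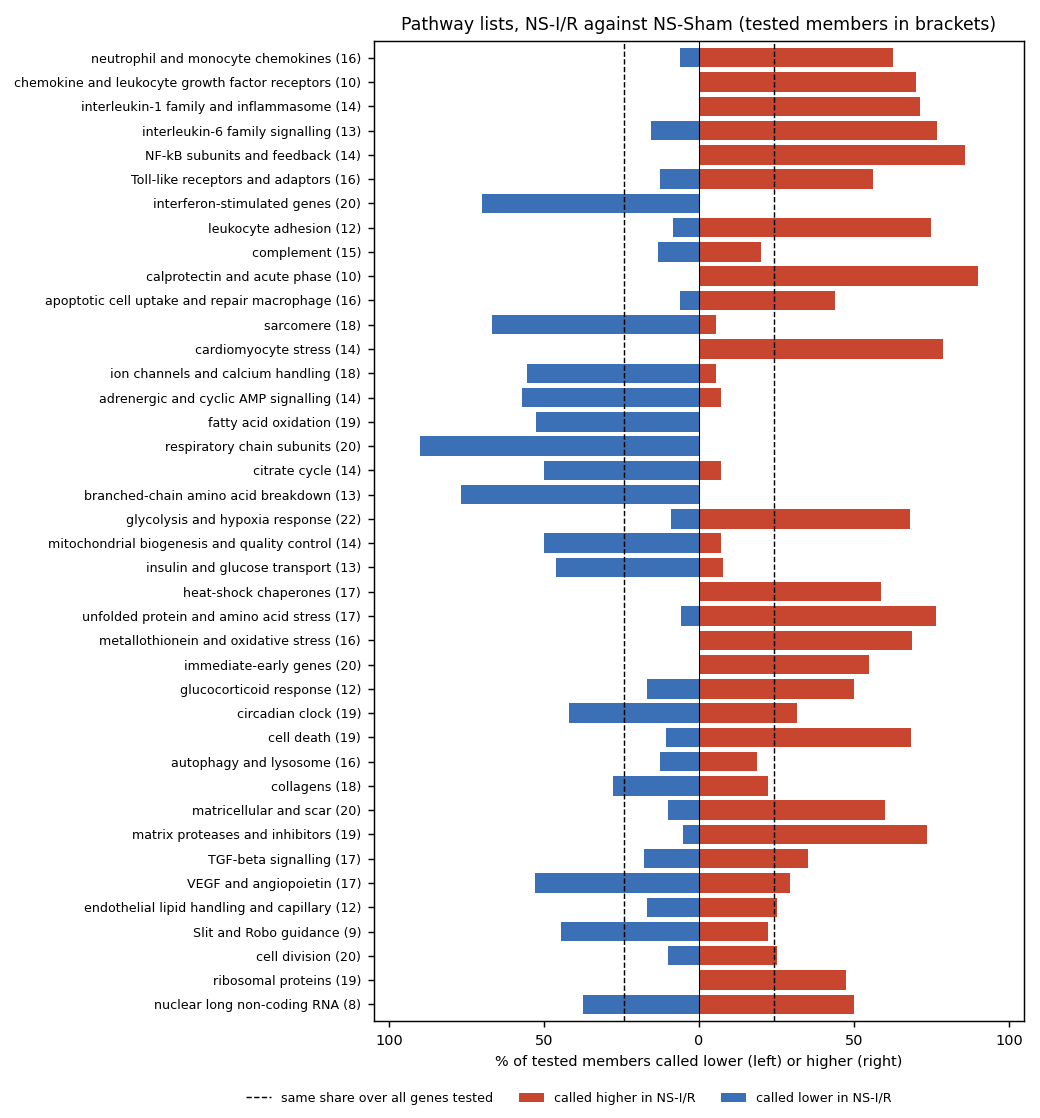
Share of tested members called lower (left, blue) or higher (right, red) in NS-I/R for the 40 pathway lists, with the number tested in brackets and dashed lines at the 24.2% called in each direction over all genes. NF-kB, calprotectin and cardiomyocyte stress lists extend farthest to the right, and respiratory chain, branched-chain amino acid, interferon and sarcomere lists farthest to the left.

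Most changes kept their sign within cardiomyocyte-marker nuclei. Of the 3761 genes called higher over all nuclei that could be tested in these nuclei, 3684 were higher there too and 2899 were called (23.6% of all genes were called higher there). For genes called lower, 3905 of 4021 kept the sign and 2813 were called. Among genes named above, Prox1, Gbp7, Rsad2, C3ar1, Adrb1, Vegfa, Ccr2, Mrc1, Il11ra1, Tlr3, Fap, Angpt2, Pcna, Ccnd1 and Tyms were not called there. Leaving out 1 library also brought in calls among genes named above as not called. Without NS-I/R 3, Nfkb1, Myom1 and Nfe2l2 were called higher and C1qa, C1qc, Gsdmd, Irf7 and Col3a1 lower. Without NS-I/R 2, Pecam1 and Mlkl were called higher and Mki67 lower, and without NS-I/R 1, Top2a was called lower. Without NS-Sham 2, Mertk was called higher and Actc1 and Lpl lower, without NS-Sham 1, Zbtb16 was called lower, and without NS-Sham 3, Acta2 was called higher. The fits share their libraries and most of their UMIs and are not independent. In cardiomyocyte-marker nuclei the chemokine median was 4.77 over the 8 members that passed the filter. Over all nuclei 16 members were tested, so the medians cover different members and cannot be compared. Members scarce in sham can pass the filter through the injured hearts alone. Neutrophil transcripts were also counted in cardiomyocyte-marker nuclei, with S100a8 at 13.1 ± 9.03 CPM. Without leukocyte-marker nuclei 4363 of 4364 higher genes and 4394 of 4394 lower genes kept their sign.

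**Figure D5:**
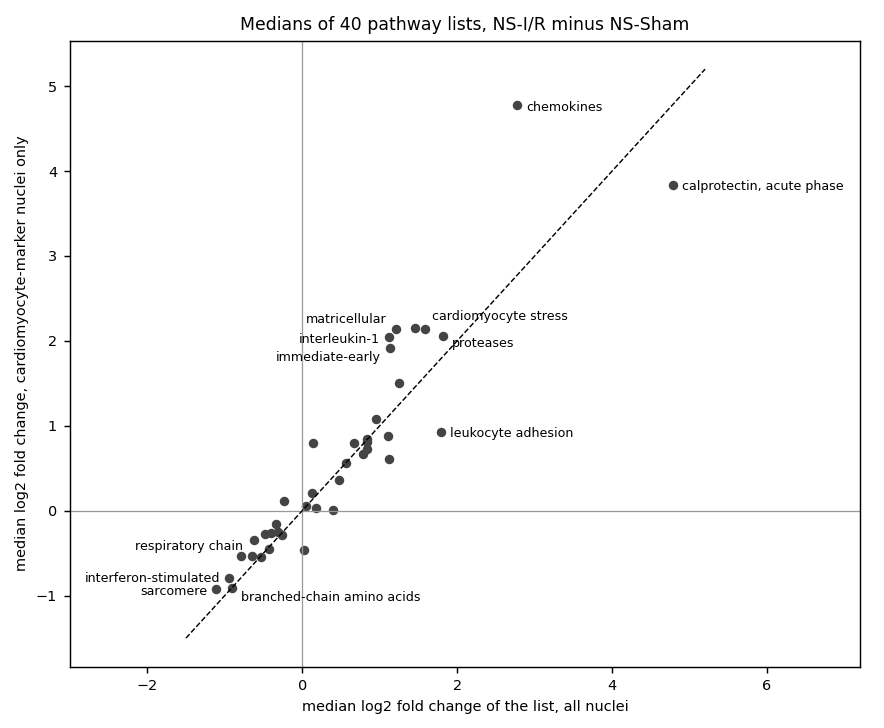
Median log2 fold change (NS-I/R minus NS-Sham) of each of the 40 pathway lists over all nuclei (horizontal) and within cardiomyocyte-marker nuclei (vertical), with the dashed line marking equal values. Most lists lie near the line, chemokines lie above it (2.78 and 4.77), and leukocyte adhesion (1.80 and 0.93) and calprotectin and acute phase genes (4.79 and 3.84) below it. The values of a list can cover different members, as with 16 chemokines tested over all nuclei and 8 in cardiomyocyte-marker nuclei.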

How the data were processed

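RNA of nuclei from frozen heart was sequenced with the 10x 3' v3.1 kit. The authors deposited 1 matrix of UMI counts per library, raw whole-number counts of 32285 genes, made with Cell Ranger 8.0.0 per the file headers, while the submitters' processing notes name Cell Ranger 6.1.1, Seurat, GRCm39 and GRCh38. The annotation, the intron setting and the strand setting are not given in the sources used here. Barcodes with fewer than 500 genes or over 5% mitochondrial UMIs were left out (30269 of 38565 kept in the 6 libraries), with no doublet caller run, and UMIs were summed per library. Genes passing edgeR's filterByExpr were fitted by edgeR 4.0.16 (R 4.3.3) with TMM scaling, 9 libraries, 3 groups and no covariate. The SE was taken from the F statistic, as the absolute log2 fold change divided by its square root. Calls use a Benjamini-Hochberg adjusted p under 0.05. Sums, shares and tables used Python 3.11.15, numpy 2.4.6, pandas 2.3.3 and scipy 1.17.1, and alternatives DESeq2 1.42.0 and limma 3.58.1 (pseudocount 1). On simulated counts of 17986 genes with 200 changed 2-fold, 124 (62%) were recovered and 5 unchanged genes were called. In the data 48.4% of genes were called, a far larger share than was changed in the simulation. The adjusted p depends on that share, so 62% is not the recovery in these data.

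Each library held 15129058 to 34842082 summed UMIs, and genes with few UMIs per library have the least precise fold changes. No 2 libraries agreed within sampling noise. Named genes were the 10 largest fold changes each way (called, groups not overlapping, mean over the 6 libraries of 10 CPM or more), the 5 largest CPM changes each way, up to 4 called members per pathway list with a mean of at least 5 CPM, the most abundant member per list, and 77 genes added for their role after their values were seen. The comparison, marker lists and pathway lists were chosen with earlier results of these data known, so list counts are descriptions and no list was tested. Alternatives changed the filters, scaling, tool, libraries, weighting, nuclei and block, and leukocyte-marker nuclei or the 5% of barcodes with most UMIs were left out. A few genes of the lists are not reported here by name. Promoter windows came from RefSeq (GRCm38.p6).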

Additional observations from a re-analysis of the deposited data

How the results depend on the processing

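The counts of genes called ran from 3132 to 5579 higher and from 3205 to 5619 lower over 21 other settings. The count lower by at least 2-fold was 2031, and 1088 when each nucleus weighed the same (limma on log2 of the mean CPM per nucleus), and the cause was not tested. Leaving out 1 library gave 3648 to 5456 genes higher, 3467 to 5619 lower, 1831 to 2536 higher by at least 2-fold and 1744 to 2755 lower by at least 2-fold, the highest of each without NS-I/R 3. Replicate numbers did not pair the libraries, since deviations from the group means correlated at 0.0252, 0.00534 and 0.0387 for the same number and at -0.0419 to 0.0179 for different ones, and not every library correlated best with its own number. Of the counts of list members called in each setting, 1536 lay within 1.5 times the count over all nuclei and 144 did not. A fit with the replicate number as a block gave 4132 genes higher and 4265 lower, and turned the sign of Tlr7 to 0.032 among the genes named. The settings on the 1% mitochondrial limit and the mitochondrial share were chosen after seeing the data. Of 299 genes named by rule or for their role, 207 kept their sign and their call in every setting that gave a value, and 24 turned sign in at least 1, of which Cd247, Rian and Tyms are called over all nuclei and turned only in cardiomyocyte-marker nuclei. The log2 fold changes with the sign turned follow, each with the cause not tested. With each nucleus weighing the same, Dkk3 at 0.17, Tlr7 at 0.067 and Nr4a3 at 0.72. With library totals, Dkk3 at 0.035, Cxcl12 at 0.13, Ryr2 at 0.065, Malat1 at 0.081, Tlr7 at 0.11, Vcam1 at 0.0025 and Col3a1 at 0.11. At the 1% mitochondrial limit, Dkk3 at 0.25, Cxcl12 at 0.52, Bag3 at -0.0497, Tlr7 at 0.043, Isg15 at 0.20, Vcam1 at 0.30 and Col3a1 at 0.13. With the mitochondrial share as a covariate, Dkk3 at 0.19, Tnnt3 at -0.036, Cxcl12 at 0.059, Cd36 at -0.055, Slit3 at -0.0204, Malat1 at 0.049, Casp1 at -0.028, Actc1 at 0.091, Nr4a3 at 1.29 and Col3a1 at 0.28. In cardiomyocyte-marker nuclei, Cd247 at 0.38, Cxcl12 at 1.28, Ryr2 at 0.24, Insr at 0.081, Slit3 at -0.41, Tyms at -0.33, Rian at 0.11, Malat1 at 0.33, Tlr7 at 0.074, Vcam1 at 0.79, Mertk at -0.11 and Actc1 at 0.0203. With the DESeq2 Wald test, Cxcl12 at 0.0075. With DESeq2 size factors, Cxcl12 at 0.0077. With a minimum of 1000 genes, Cxcl12 at 0.069 and Col3a1 at 0.023. Without leukocyte-marker nuclei, Cxcl12 at 0.029 and Col3a1 at 0.0087. Without the low-count filter, Bag3 at -0.0039. With all deposited barcodes, Tlr7 at 0.18 and Col3a1 at 0.0019. At the 20% mitochondrial limit, Tlr7 at 0.15 and Col3a1 at 0.015. Over the fits that each left out 1 library, Dkk3 from -0.27 to 0.15, Cidec from -1.53 to 4.38, Cxcl12 from -0.18 to 0.15, Cd36 from -0.023 to 0.29, Ryr2 from -0.19 to 0.042, Bag3 from -0.20 to 0.22, Zbtb16 from -0.83 to 0.072, Malat1 from -0.15 to 0.049, Pdgfra from -0.074 to 0.26, Casp1 from -0.021 to 0.36, Tlr7 from -0.23 to 0.23, Nr4a3 from -1.25 to 1.80, Col3a1 from -0.97 to 0.28 and Col1a1 from -0.39 to 0.49. A gene that was not called is not shown to be unchanged, and genes of a few UMIs per library are limited by depth. The 62% recovery of simulated 2-fold changes came from a setting with 200 changed genes and does not give the recovery in these data.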
